A study of Mus musculus with 24 samples.

Results

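Cop1 was knocked down in wild-type mouse embryonic fibroblasts, connective tissue cells cultured from mouse embryos, and the messenger RNA was compared with that of cells given a control siRNA. The comparison rests on 6 of the 24 libraries of the series, selected by their labels alone. There were 3 libraries of cells with siCop1 (taken as an siRNA against Cop1) and 3 with siCTRL (taken as the control siRNA). Both groups received DMSO, where other libraries received the compound KL001, and neither received Dexa, an agent the labels do not spell out. All 24 libraries share the wild-type genotype. The 18 others hold the same siRNA pair in 3 further settings, namely DMSO plus Dexa, KL001 alone, and KL001 plus Dexa. The sources used here do not give doses, exposure times, siRNA sequences or the origin of the replicates. The p-values therefore measure the spread between these libraries, which may be technical.

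In CRL4 ubiquitin ligases the scaffold Cul4 and the adaptor Ddb1 carry exchangeable receptors. Cop1, held there through Det1, is such a receptor and selects the proteins to be marked for degradation. Tribbles pseudokinases bring C/EBP factors to Cop1. Other described substrates are the AP-1 subunit Jun and the ETS factors of the Etv and Ets families, which drive genes of growth factor signalling and matrix turnover in fibroblasts. Because Cop1 acts on proteins, transcripts of the substrates and of their target genes are separate readouts, and protein levels were not measured here.

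The 6 libraries held 24297247 to 27875023 counts, with a median of 25467264. Of the 47480 genes in the table, 28837 had at least 1 count in the series and 14772 passed the filter on low counts. Levels are given in CPM, counts relative to the TMM-scaled library size. CPM do not correct for gene length and so are compared between libraries and not between genes. A gene was called changed when the quasi-likelihood test of edgeR gave a Benjamini-Hochberg adjusted p below 0.05, and each adjusted p given here is from that test. The fibroblast label was checked against 15 marker genes. All 15 passed the filter, and their summed level was 56420 to 59818 CPM with siCTRL and 49779 to 51342 CPM with siCop1. Most of that sum was Col1a1, Col1a2, Fn1, Vim and Col3a1, whereas Dcn and Lum stayed at 4.04 CPM or less in each library.

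The control libraries stood apart in 2 ways before any comparison. All 3 siCTRL libraries held heart muscle transcripts. Myh6, the motor protein of the atrial and rodent ventricular heart muscle, had 563, 97 and 191 counts with siCTRL and 0 counts in each siCop1 library, where a count of 0 allows up to 3 counts. With 3 counts over the whole siCop1 group taken as the floor, its level was at least 275-fold higher with siCTRL, and at least 150.5-fold higher without siCTRL replicate 1. siCTRL replicate 1, which held most of it, also differed more from its group: chi-square per degree of freedom was 4.96 and 5.51 against replicates 2 and 3, compared with 1.78 between those 2 and 1.86 to 2.08 among the siCop1 libraries. Results that rest on heart transcripts or on that library are named where they occur.

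The knockdown itself was visible in each library. The Cop1 transcript, listed under its older symbol Rfwd2, stood at 29.7, 28.6 and 26.9 CPM with siCTRL and 4.66, 4.78 and 4.997 CPM with siCop1. Every siCop1 library lay below every siCTRL library, with a 5.902-fold lower mean (log2 fold change -2.56, SE 0.073, adjusted p 4.01e-21).

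Many transcripts changed by small amounts with the knockdown. In all, 4342 of 14772 genes tested were called (29.4%), 1890 of them higher (12.8%) and 2452 lower (16.6%). The median size of the called changes was 0.25 on the log2 scale, with quartiles of 0.16 and 0.44, and 3432 of them (79.0%) were under 0.5. At least 2-fold changes were called for 116 higher genes (0.785%) and 175 lower genes (1.18%), and 129 of these 291 genes had a mean below 1 CPM. The 2 groups did not overlap for 4215 of the called genes, and for 42.7% of all genes tested. The common biological coefficient of variation was 3.71%. The median log2 fold change over all genes tested was -0.0097, which serves below as the background for the medians of gene lists. The shares called among all genes tested (29.4%, with 12.8% higher and 16.6% lower) are the background for the counts of list members.

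**Figure D1:**
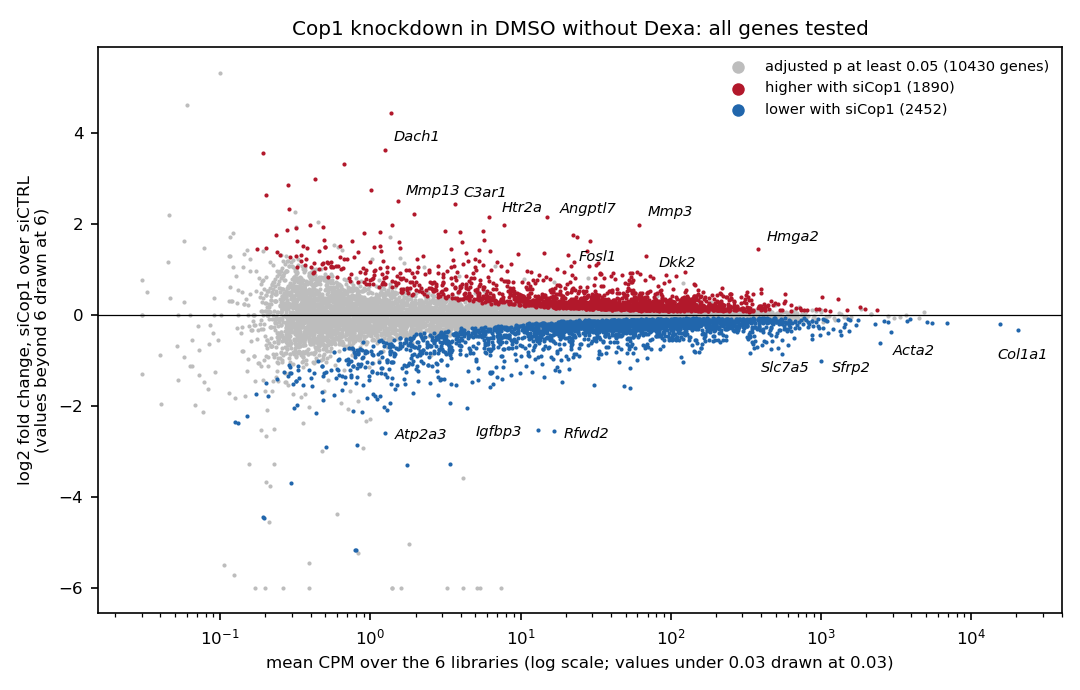
Fold change of every gene tested against its level. The x axis is the mean CPM over the 6 libraries (log scale) and the y axis the log2 fold change of siCop1 over siCTRL; red and blue points passed the test. Of the 23 genes below -4, 15 are heart muscle markers and 4 were called.

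Among the 10 ligase components and Tribbles adaptors, all of which passed the filter, 4 were lower and 1 was higher (50% called). Apart from Rfwd2, the largest change was in Trib3, a Tribbles pseudokinase that is also a target of the stress factor ATF4, which stood at 192, 185 and 182 CPM with siCTRL and 103, 106 and 107 CPM with siCop1 (log2 fold change -0.83, SE 0.037, adjusted p 1.4e-16). Its libraries did not overlap. Trib1, the adaptor that delivers C/EBP alpha, rose from 19.3 ± 0.617 to 23.2 ± 1.21 CPM (SD, n = 3 each), a log2 fold change of 0.27, adjusted p 0.00181. Ddb1 was lower by a small margin (-0.12, adjusted p 0.00053). Det1 was also called (-0.17, adjusted p 0.0397), but not without siCTRL replicate 2 or siCop1 replicate 2 or 3, where the adjusted p was 0.255, 0.235 and 0.0519. The call was also lost with RLE scaling (0.0545), with no filter on low counts (0.15), in the 2 groups alone (0.1) and in DESeq2 (0.144). With the heart muscle score as a covariate it was lost too (log2 fold change -0.21, adjusted p 0.0574). The scaffold and ring subunits Cul4a (-0.050, adjusted p 0.315), Cul4b (0.017, adjusted p 0.836) and Rbx1 (0.073, adjusted p 0.282), the subunit Dda1 (-0.012, adjusted p 0.879) and the adaptor Trib2 (0.028, adjusted p 0.66) did not pass.

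Transcripts of the 11 factors listed as Cop1 substrates split evenly, with 4 higher and 4 lower (72.7% called) and a median log2 fold change of -0.0029. Foxo1, a transcription factor restrained by insulin signalling, stood at 81.5, 85.2 and 90.1 CPM with siCTRL and 105, 103 and 106 CPM with siCop1 (log2 fold change 0.29, SE 0.042, adjusted p 2.84e-06). Its 3 siCop1 libraries lay above all 3 control libraries. Jun rose as well, with 86.9, 79.6 and 83.1 CPM with siCTRL and 121, 125 and 123 CPM with siCop1 (log2 fold change 0.56, SE 0.037, adjusted p 6.74e-13). Ets2 (0.11, adjusted p 0.0349) and Trp53 (0.11, adjusted p 0.0352) completed the higher side, and both calls were lost without single libraries. Ets2 lost it without siCTRL replicate 1 or 2 or siCop1 replicate 1 or 3 (adjusted p 0.0668 to 0.135), and Trp53 without siCTRL replicate 1 or 3 or siCop1 replicate 2 or 3 (0.0569 to 0.162). Without siCTRL replicate 1, or with the heart muscle score as a covariate, 2 substrates were higher. With that covariate the log2 fold change was 0.13 for Ets2 (adjusted p 0.0635) and 0.12 for Trp53 (adjusted p 0.0718). The score did not overlap between siCTRL and siCop1 libraries, so this covariate overlaps with the knockdown itself. A call lost with it does not show that a gene depends on heart transcripts. For Ets2 the adjusted p was 0.0542 with no filter on low counts.

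The 4 lower members were 3 ETS factors and Cebpa. Etv5 was at 27.1, 26.9 and 25.2 CPM with siCTRL and 16.4, 17.3 and 17.7 CPM with siCop1 (log2 fold change -0.63, SE 0.055, adjusted p 2.72e-10), and no siCop1 library reached the control range. Ets1 of the same family fell from 81.6 ± 3.18 to 62.8 ± 1.7999 CPM (SD, n = 3 each), a log2 fold change of -0.38, adjusted p 2.77e-07. Etv4 (-0.22, adjusted p 0.00181) and Cebpa, the C/EBP factor delivered by Tribbles proteins (-0.49, adjusted p 0.000641), were lower too. Etv1 (-0.0029, adjusted p 0.992), Cebpb (-0.059, adjusted p 0.794) and Crtc2, a coactivator of CREB (0.11, adjusted p 0.0596), did not pass. Crtc2 was called without siCop1 replicate 3 (log2 fold change 0.15, adjusted p 0.0156). It was also called with RLE scaling (adjusted p 0.0351), in the 2 groups alone (0.0419) and in DESeq2 (0.049).

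The AP-1 family, whose Jun and Fos subunits pair on TGANTCA sites, changed in both directions. Of 14 members 13 were tested, 3 were higher and 4 lower (53.8% called), with a median of -0.08. Fosl1, which encodes the Fos subunit Fra-1, stood at 12.5, 12.1 and 11.1 CPM with siCTRL and 30.2, 29.7 and 29.3 CPM with siCop1 (log2 fold change 1.32, SE 0.063, adjusted p 5.35e-16). The group ranges were far apart. Jund and Junb, the 2 other Jun paralogues, fell by 0.49 (adjusted p 0.000453) and 0.31 (adjusted p 4.52e-05) on the log2 scale. Jund was at 159, 125 and 128 CPM with siCTRL and 95.02, 99.002 and 99.2 CPM with siCop1, and siCTRL replicate 1 was the highest library. Atf3, a stress-induced partner of Jun, fell from 26.7 ± 0.676 to 17.03 ± 1.16 CPM (SD, n = 3 each, log2 fold change -0.65, adjusted p 1.81e-09). Fosb rose (0.31, adjusted p 0.0243), a call that was lost without siCTRL replicate 3 or siCop1 replicate 1 or 2 (adjusted p 0.0685, 0.109 and 0.0523). It was also lost with the heart muscle score as a covariate (log2 fold change 0.35, adjusted p 0.0578). Fos itself was at -0.35 (adjusted p 0.0725).

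Genes that growth factor signalling through ERK induces, several of which feed back on it, were more often higher. Of the 19 listed and tested, 10 were higher (52.6%) and 3 lower (15.8%), with a median of 0.15. In the 3 other settings, read as described below, the list median was 0.026. Dusp6, a phosphatase that switches ERK off, was at 29.3, 29.8 and 27.01 CPM with siCTRL and 54.4, 51.7 and 56.3 CPM with siCop1 (log2 fold change 0.91, SE 0.045, adjusted p 1.04e-15). Errfi1, which inhibits the EGF receptor, rose from 28.2 ± 0.7202 to 51.2 ± 0.789 CPM (SD, n = 3 each, log2 fold change 0.86, adjusted p 4.33e-15), and Dusp4, a nuclear ERK phosphatase, rose by 0.67. Phlda1 (0.64) and Myc (0.36) were further members of this higher side. The receptor feedback inhibitors Spry4 (-0.51, adjusted p 6.07e-06) and Spry1 (-0.29, adjusted p 0.0151) went the other way, as did Ier2 (-0.17, adjusted p 0.0213). The call of Spry1 was lost without siCTRL replicate 2 or siCop1 replicate 2 or 3 (adjusted p 0.0589 to 0.145). That of Ier2 was lost without siCTRL replicate 1 or siCop1 replicate 1 (0.176 and 0.117), and with the heart muscle score as a covariate (log2 fold change -0.12, adjusted p 0.221).

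Growth factor genes were divided, with 7 higher and 7 lower of 23 tested (60.9% called) and a median of -0.04. Among ligands of the EGF receptor, Hbegf stood at 23.7, 23.7 and 24.1 CPM with siCTRL and 38.6, 37.6 and 36.8 CPM with siCop1 (log2 fold change 0.66, SE 0.046, adjusted p 2.41e-12) and Ereg at 12.8, 13.8 and 14.3 CPM with siCTRL and 19.5, 18.9 and 19.7 CPM with siCop1 (log2 fold change 0.51, SE 0.069, adjusted p 1.04e-06). Neither overlapped its control range. Tgfa, another ligand of that receptor, fell from 10.7 ± 0.188 to 7.38 ± 0.601 CPM (SD, n = 3 each, log2 fold change -0.53, adjusted p 1.92e-05). Fgf21, a stress hormone, fell from 1.79 ± 0.243 to 0.518 ± 0.0414 CPM (SD, n = 3 each, log2 fold change -1.78), and Pdgfb, a mitogen of mesenchymal cells, fell by 0.57 on the log2 scale.

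**Figure D2:**
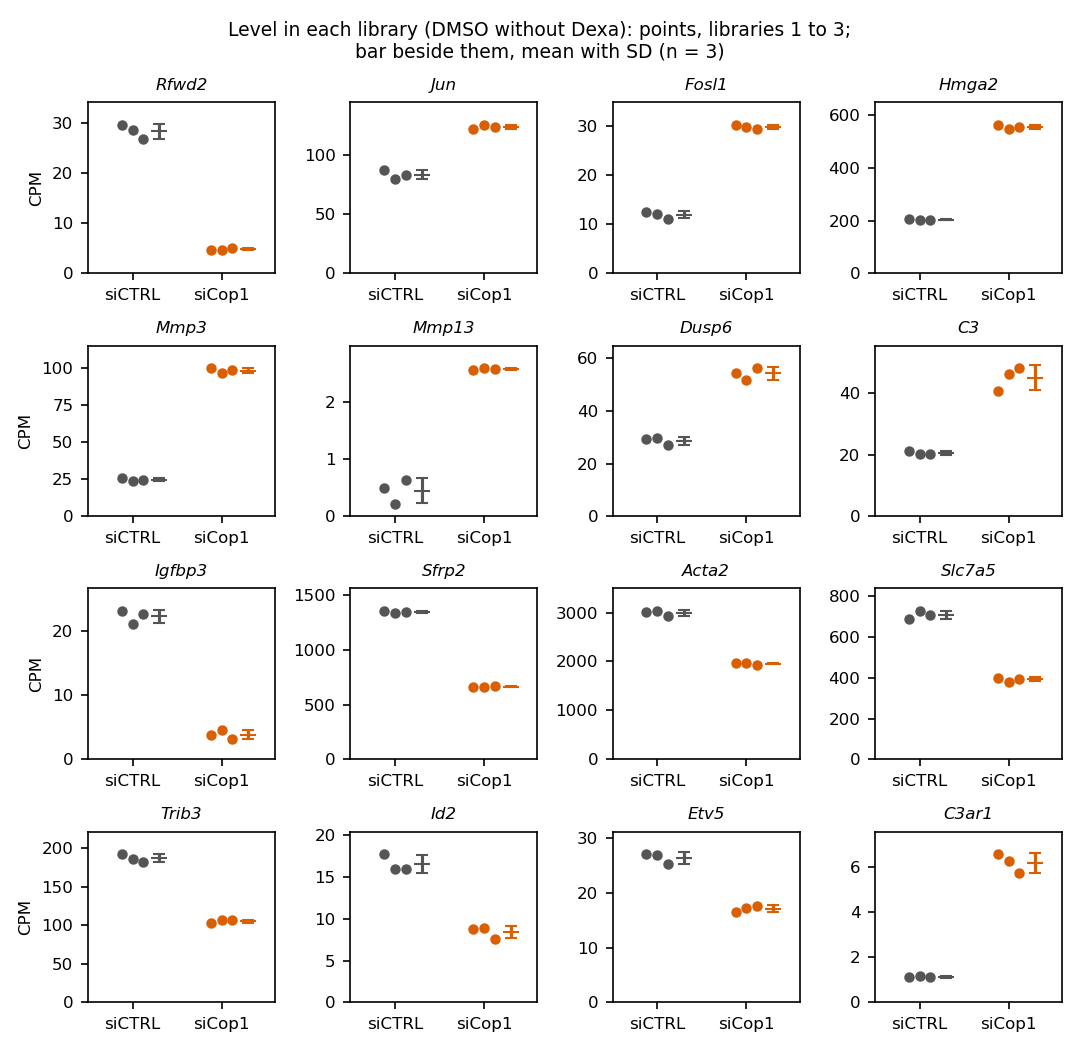
Levels of 16 genes in each of the 6 libraries, in CPM on a linear axis starting at 0. Points are libraries 1 to 3 and the bar beside them is the mean with its SD (n = 3); in all 16 panels the 3 siCop1 libraries lie outside the range of the 3 siCTRL libraries.

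Matrix-degrading proteases and the plasminogen system, which breaks down extracellular matrix during remodelling, were mostly higher. Of 24 listed genes 22 were tested, 12 were higher (54.5%) and 4 lower (18.2%), with a median of 0.21. The promoter stretches of 4 higher members that hold an AP-1 motif within the 300 bases from 250 before to 50 after the start are shown first, because the Jun and Fos proteins, whose transcripts are described above, bind this motif. They are 80 bases long, 5′ to 3′ on the + strand of the RefSeq GRCm38.p6 build, at chr9:7445742-7445821, chr9:7502259-7502338, chr9:7272434-7272513 and chr7:24462394-24462473, and capitals mark TGANTCA, searched on both strands.
Mmp3: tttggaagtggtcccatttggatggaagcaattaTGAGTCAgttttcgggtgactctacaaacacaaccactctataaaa
Mmp10: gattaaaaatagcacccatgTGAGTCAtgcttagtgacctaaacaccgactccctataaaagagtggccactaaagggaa
Mmp13: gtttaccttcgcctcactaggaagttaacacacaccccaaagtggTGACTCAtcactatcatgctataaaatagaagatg
Plaur: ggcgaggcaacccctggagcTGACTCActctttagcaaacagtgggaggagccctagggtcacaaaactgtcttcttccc
This motif was in 7.81% of 32851 promoter windows of the same length and in 4 of the 13 list members with a window. It was in 6.64% of the 10498 tested genes with a window, in 9.03% of those called higher, in 5.67% of those called lower, in 18 of 75 genes called at least 2-fold higher (24%) and in 11 of 107 called at least 2-fold lower (10.3%). These shares describe letters in a window and carry no test.

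Mmp3, the stromelysin that cleaves many matrix proteins and activates other proteases, stood at 26.04, 23.6 and 24.6 CPM with siCTRL and 99.9, 96.1 and 98.1 CPM with siCop1 (log2 fold change 1.98, SE 0.085, adjusted p 5.33e-14). Mmp13, a collagenase, was at 0.505, 0.2105 and 0.636 CPM with siCTRL and 2.57, 2.604 and 2.58 CPM with siCop1 (log2 fold change 2.49, SE 0.35, adjusted p 2.48e-06). Mmp10, a second stromelysin, was at 0.0721, 0.0421 and 0.159 CPM with siCTRL and 0.782, 0.855 and 0.645 CPM with siCop1 (log2 fold change 2.99, SE 0.50, adjusted p 1.8e-05). In all 3 genes every siCop1 library lay above every control library. Mmp9, a gelatinase, rose from 1.64 ± 0.402 to 3.28 ± 0.584 CPM (SD, n = 3 each, log2 fold change 0.99, adjusted p 0.000847). The membrane protease Mmp14, which activates other MMPs at the cell surface, rose from 872 ± 17.4 to 1151 ± 18.7 CPM (SD, n = 3 each, log2 fold change 0.40, adjusted p 5.67e-13).

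Of the plasminogen activators, Plat rose by 0.34 and Plau by 0.27, and their receptor Plaur stood at 18.7, 17.3 and 16.9 CPM with siCTRL and 25.4, 26.7 and 27.9 CPM with siCop1 (log2 fold change 0.60, SE 0.061, adjusted p 5.75e-09). A pair of inhibitors of these proteases fell. Timp3, a matrix-bound MMP inhibitor, was at 600.5, 670.0 and 661 CPM with siCTRL and 382, 387 and 389 CPM with siCop1 (log2 fold change -0.74, SE 0.049, adjusted p 1.5e-11), and Serpine2, which blocks plasminogen activators, fell from 195 ± 4.36 to 126 ± 3.85 CPM (SD, n = 3 each, log2 fold change -0.63, adjusted p 5.07e-15). Timp1, another MMP inhibitor (-0.042, adjusted p 0.483), did not pass. The remaining lower members were Adamts5 (-0.32, adjusted p 1.03e-05) and Mmp23 (-0.48, adjusted p 0.0132), and Mmp23 lost its call without siCTRL replicate 1 or 3 (adjusted p 0.0746 and 0.0614), with no filter on low counts (0.0539), in DESeq2 (0.0544) and with the heart muscle score as a covariate (0.0798).

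Structural matrix genes were mostly lower. Of 22 collagen genes 12 were lower (54.5%) and 1 was higher (4.55%), with a median of -0.13. Col1a1, one chain of type I collagen and the called gene with the largest loss in CPM, stood at 21670.0, 23443 and 23502 CPM with siCTRL and 18268, 17808 and 18639 CPM with siCop1 (log2 fold change -0.33, SE 0.044, adjusted p 5.35e-06). Its partner chain Col1a2 fell from 16613 ± 332 to 14462 ± 252 CPM (SD, n = 3 each, log2 fold change -0.20, adjusted p 1.79e-07). Larger fold changes were found in other chains. Col14a1, a fibril-associated collagen, was at 3.21, 2.82 and 2.86 CPM with siCTRL and 0.857, 1.05 and 0.806 CPM with siCop1 (log2 fold change -1.71, SE 0.18, adjusted p 8.21e-09), Col8a2 at 11.9, 10.99 and 14.3 CPM with siCTRL and 5.25, 4.78 and 4.796 CPM with siCop1 (log2 fold change -1.32, SE 0.13, adjusted p 4.6e-09), and Col27a1 fell from 72.1 ± 0.2498 to 43.2 ± 1.82 CPM (SD, n = 3 each, log2 fold change -0.74, adjusted p 6e-15). Col8a1 was the higher member (0.19, adjusted p 0.0113), and its call was lost without siCTRL replicate 1 or siCop1 replicate 3 and with the heart muscle score as a covariate. Serpinh1, the collagen chaperone of the endoplasmic reticulum, fell from 3329.7 ± 53.8 to 2557 ± 40.1 CPM (SD, n = 3 each, log2 fold change -0.38, adjusted p 5.45e-13).

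Elastic fibre and cross-linking genes followed, with 12 lower (54.5%) and 4 higher (18.2%) of 22 and a median of -0.17. Among the enzymes that cross-link collagen and elastin, Loxl4 was at 62.5, 67.1 and 66.5 CPM with siCTRL and 38.8, 33.9 and 36.8 CPM with siCop1 (log2 fold change -0.84, SE 0.047, adjusted p 1.62e-14), whereas Lox was called higher by 0.11 (adjusted p 0.0462). The Lox call was lost without any of siCTRL replicates 1 and 2 or siCop1 replicates 1, 2 and 3 (adjusted p 0.0618 to 0.181). With the heart muscle score as a covariate its log2 fold change was 0.055 (adjusted p 0.457). Loxl2, another of these enzymes, was lower by a larger step (-1.16, adjusted p 0.00057). The microfibril protein Mfap4 fell from 6.25 ± 0.524 to 2.64 ± 0.305 CPM (SD, n = 3 each, log2 fold change -1.24, adjusted p 1.66e-07). Fbln2, a fibulin of elastic fibres, rose from 1144 ± 19.01 to 1449.9 ± 40.6 CPM (SD, n = 3 each, log2 fold change 0.34, adjusted p 2.4e-11), and Emilin2 rose by 0.32. Without siCop1 replicate 1, 2 members of the list were higher. Fn1, the fibronectin gene, fell from 7381 ± 389.8 to 6492 ± 281 CPM (SD, n = 3 each), with -0.19, adjusted p 0.0138. Its call was lost without siCTRL replicate 2 or 3 or siCop1 replicate 2 or 3 (0.0511 to 0.0659). The secreted glycoprotein Fstl1 rose from 1710.1 ± 47.05 to 1921 ± 40.4 CPM (SD, n = 3 each, log2 fold change 0.17, adjusted p 3.13e-05).

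Integrins, the receptors that tie cells to this matrix, changed in both directions, with 6 higher and 5 lower of 18 (61.1% called). Itgb8, which activates latent TGF-beta, stood at 16.99, 18.1 and 19.9 CPM with siCTRL and 40.9, 36.6 and 37.7 CPM with siCop1 (log2 fold change 1.07, SE 0.082, adjusted p 8.92e-11). The laminin receptor subunit Itga7 rose by 0.81. Itga4, a fibronectin receptor subunit, was lower (-0.91, adjusted p 0.000172). The collagen receptor subunits Itga1 and Itga11 fell, Itga1 from 24.9 ± 1.501 to 12.5 ± 0.814 CPM (SD, n = 3 each, log2 fold change -0.99) and Itga11 by a smaller step (-0.35).

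Smooth muscle and contractile genes, which the factor SRF drives through CArG boxes, fell in most cases. All 19 were tested, 0 were higher and 14 were lower (73.7%), with a median of -0.29 that was -0.27 when the heart muscle genes were left out. The promoters of 2 lower members with a CArG box, 80 bases each on the + strand of GRCm38.p6 at chr10:79988520-79988599 and chr2:156775283-156775362 with the box in capitals, show the element.
Cnn2: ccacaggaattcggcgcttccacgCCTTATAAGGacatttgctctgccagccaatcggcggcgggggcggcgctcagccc
Myl9: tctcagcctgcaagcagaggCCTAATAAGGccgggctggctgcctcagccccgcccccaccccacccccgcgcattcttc
The CArG box, searched on both strands, was in 1.63% of all windows, in 1.61% of tested genes, in 2.62% of those called lower and in 5 of 15 list members with a window.

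Acta2, the smooth muscle actin that marks contractile fibroblasts, stood at 3001, 3035 and 2933 CPM with siCTRL and 1967, 1965 and 1938 CPM with siCop1 (log2 fold change -0.61, SE 0.026, adjusted p 4.9e-17). Its siCop1 libraries were all below the control range. Tagln, an actin-binding protein of the same programme, was at 768, 727 and 719 CPM with siCTRL and 481, 463 and 463 CPM with siCop1 (log2 fold change -0.65, SE 0.034, adjusted p 3.54e-15). Actg2 fell from 60.4 ± 1.91 to 29.3 ± 0.549 CPM (SD, n = 3 each, log2 fold change -1.04), Cnn1 from 196 ± 4.803 to 119 ± 2.66 CPM (SD, n = 3 each, log2 fold change -0.72), and Cnn2 and Myl9 fell by 0.29 and 0.33 on the log2 scale. The transcript of Srf itself was at -0.065 (adjusted p 0.332). Des, also on this list, is described with the heart muscle genes.

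Pathways that act on this programme changed in part. Of 14 YAP and CCN genes 3 were higher and 5 lower (57.1% called), with a median of -0.05, and 1 was higher with the heart muscle score as a covariate. Ctgf, a matricellular target of YAP, was at 165, 165 and 164 CPM with siCTRL and 190.0, 189 and 180.3 CPM with siCop1 (log2 fold change 0.18, SE 0.037, adjusted p 0.000367), and Amotl2, an inhibitor of YAP, fell from 338 ± 9.24 to 262 ± 5.92 CPM (SD, n = 3 each, log2 fold change -0.37). In the TGF-beta and BMP list 4 were higher and 9 lower of 22 (59.1% called), with a median of -0.11. The BMP-induced repressors Id1, Id2 and Id3 fell together. Id2 was at 17.8, 15.96 and 15.9 CPM with siCTRL and 8.76, 8.94 and 7.62 CPM with siCop1 (log2 fold change -0.97, SE 0.086, adjusted p 3.08e-10), Id1 changed by -0.74 and Id3 by -0.56. The secreted BMP antagonist Grem1 rose from 178 ± 3.17 to 247 ± 7.98 CPM (SD, n = 3 each, log2 fold change 0.47), and Fst, the activin antagonist, by 0.29. Inhba, which encodes the activin A subunit, was at 19.1, 24.5 and 23.99 CPM with siCTRL and 33.4, 31.1 and 32.4 CPM with siCop1 (log2 fold change 0.52, SE 0.11, adjusted p 0.00134), and its adjusted p was 0.0717 with the heart muscle score as a covariate.

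Wnt genes had the third lowest list median, -0.23, with 7 lower and 5 higher of 20 tested. Sfrp2, a secreted Wnt modulator, was at 1358, 1341 and 1348 CPM with siCTRL and 665, 659.5 and 673 CPM with siCop1 (log2 fold change -1.02, SE 0.033, adjusted p 1.33e-19), and the groups were widely separated. Sfrp1 (-1.25) and Dkk3 (-1.02), of the same kind, were lower as well. The Wnt antagonist Dkk2 stood at 49.7, 51.8 and 53.3 CPM with siCTRL and 93.4, 88.8 and 98.1 CPM with siCop1 (log2 fold change 0.86, SE 0.052, adjusted p 1.18e-13). Rnf43, a ligase that removes Wnt receptors, rose by 0.74 and Axin2, a transcriptional target of the pathway, by 0.55.

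The insulin-like growth factor list held 2 large opposite changes among 2 higher and 4 lower of 12 tested (50% called). Igfbp3, a secreted protein that binds these growth factors, stood at 23.1, 21.01 and 22.5 CPM with siCTRL and 3.801, 4.63 and 3.14 CPM with siCop1 (log2 fold change -2.52, SE 0.11, adjusted p 2.81e-16). Igfbp4 fell from 495 ± 14.8 to 311 ± 5.78 CPM (SD, n = 3 each, log2 fold change -0.67) and Igfbp7 changed by -0.49. Hmga2, a chromatin protein of embryonic and transformed cells, stood at 206, 204 and 203 CPM with siCTRL and 564, 548 and 554 CPM with siCop1 (log2 fold change 1.44, SE 0.030, adjusted p 3.64e-24), the largest gain in CPM among the called higher genes. Its described target Igf2bp2, an RNA-binding protein, rose by 0.16 (adjusted p 0.000663).

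Immune and inflammatory lists differed in how many members were called. Of 25 interferon-stimulated genes tested 0 were higher and 2 lower, together 8% against 29.4% of all genes tested, with a median of -0.00026. The 2 lower became 1 without siCop1 replicate 1 or 2 or siCTRL replicate 2 or 3, and in DESeq2. Among NF-kB, cytokine and chemokine genes 5 were higher and 3 lower of 18 tested (44.4% called). The 5 higher became 3 without siCop1 replicate 1 or with the heart muscle score as a covariate. The 3 lower became 1 with no filter on low counts or in DESeq2. Il1rl1, the receptor of interleukin 33, was at 84.5, 83.4 and 87.8 CPM with siCTRL and 161, 159 and 168 CPM with siCop1 (log2 fold change 0.93, SE 0.048, adjusted p 3.54e-15), and Ptgs2, the inducible enzyme of prostaglandin synthesis, rose by 0.52. Of 12 complement genes 3 were higher (25% called). C3, the central complement protein, stood at 21.4, 20.2 and 20.1 CPM with siCTRL and 40.8, 46.4 and 48.3 CPM with siCop1 (log2 fold change 1.132, SE 0.072, adjusted p 9.09e-13). C3ar1, the receptor of its fragment C3a, was at 1.12, 1.18 and 1.11 CPM with siCTRL and 6.595, 6.26 and 5.72 CPM with siCop1 (log2 fold change 2.44, SE 0.15, adjusted p 7.63e-14), with all siCop1 libraries above the controls. Because C3ar1 is also a gene of myeloid cells, macrophage markers were read beside it. The summed level of all 16 listed was 7.75 to 9.33 CPM with siCTRL and 10.6 to 15.6 CPM with siCop1. Of 8 tested 3 were higher (Cd68, Cd14 and Cd300lb), against 12.8% of all genes tested. Csf1r (0.13, adjusted p 0.77) and Lyz2 (1.05, adjusted p 0.341) did not pass, and 8 of the 16 listed were below the filter. Their part in the rise of C3ar1 and of Ptpn22, given below, was not tested.

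The list with the lowest median was that of ATF4 and unfolded protein response genes, which cells use when amino acids run short or proteins misfold. Of 26 members 20 were lower (76.9%) and 2 higher (7.69%), and the median was -0.32. The promoters of 3 lower members that carry the composite element recognised by ATF4 and CHOP, TGATGNAA on either strand, are printed for comparison. They are 80 bases each, 5′ to 3′ on the gene's strand of GRCm38.p6, at chr6:7693210-7693289 (- strand), chr2:119351029-119351108 and chr8:94386297-94386376 (both + strand), with the element or its reverse complement in capitals.
Asns: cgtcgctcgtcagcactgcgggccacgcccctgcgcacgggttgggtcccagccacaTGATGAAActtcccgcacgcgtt
Chac1: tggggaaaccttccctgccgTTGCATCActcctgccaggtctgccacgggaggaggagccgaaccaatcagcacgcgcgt
Herpud1: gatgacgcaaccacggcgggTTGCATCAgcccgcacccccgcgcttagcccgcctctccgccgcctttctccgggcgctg
The element was in 3.97% of all windows, in 2.72% of tested genes, in 4.196% of those called lower and in 2.64% of those called higher. It was in 3 of 107 genes called at least 2-fold lower (2.80%) and in 2 of 75 called at least 2-fold higher (2.67%). Of list members with a window 6 of 24 held it, but the list was chosen to hold ATF4 response genes. These shares carry no test.

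Slc7a5, the leucine transporter, was at 689.5, 729.8 and 709 CPM with siCTRL and 402, 382 and 395 CPM with siCop1 (log2 fold change -0.85, SE 0.032, adjusted p 2.35e-18), with no overlap. The asparagine synthetase Asns stood at 369.6, 375 and 375 CPM with siCTRL and 265, 272 and 265 CPM with siCop1 (log2 fold change -0.48, SE 0.025, adjusted p 5.07e-15). Ddit3, which encodes CHOP, stood at 117, 114 and 109 CPM with siCTRL and 81.2, 80.7 and 78.02 CPM with siCop1 (log2 fold change -0.50, SE 0.036, adjusted p 4.26e-12), and Atf4 itself at 659, 662 and 637 CPM with siCTRL and 528, 520.4 and 518 CPM with siCop1 (log2 fold change -0.32, SE 0.029, adjusted p 3.86e-10). Both were below their control range in every siCop1 library. Chac1, an enzyme that degrades glutathione, changed by -0.51, and the serine synthesis enzyme Psat1 by -0.39. In the endoplasmic reticulum arm, Edem1, which sorts misfolded proteins for degradation, fell from 181 ± 7.14 to 118 ± 1.904 CPM (SD, n = 3 each, log2 fold change -0.62), and Herpud1 and the chaperone Hspa5 fell by 0.40 and 0.25 on the log2 scale. The 2 higher members, Creld2 (0.16, adjusted p 0.0204) and Pdia4 (0.11, adjusted p 0.0173), lost their calls without single libraries. They also lost them with the heart muscle score as a covariate (log2 fold change 0.18 and 0.11, adjusted p 0.0505 and 0.0549). Without siCop1 replicate 3, 0 members of the list were higher.

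**Figure D3:**
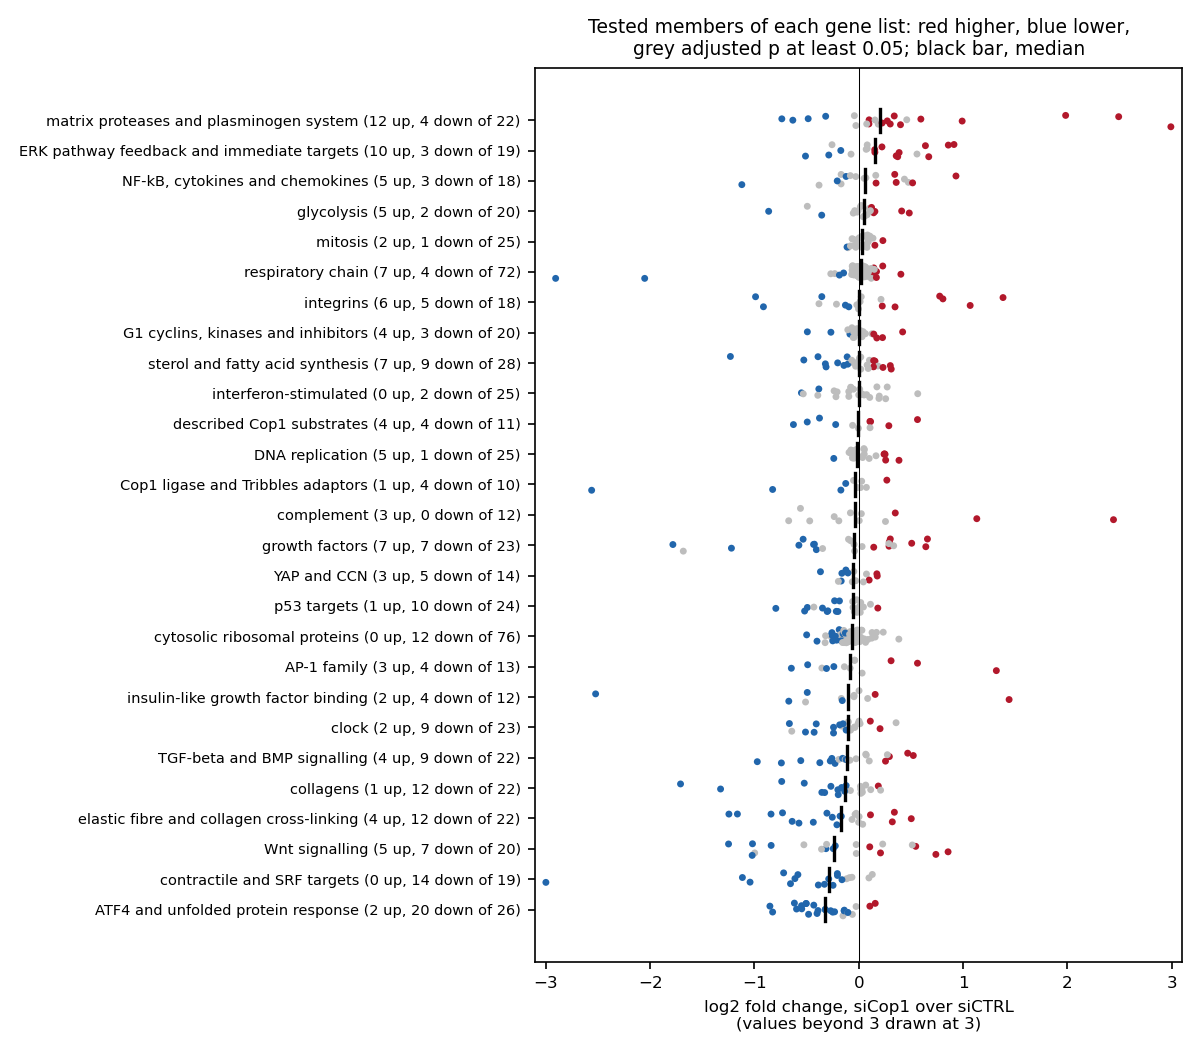
Log2 fold changes of the tested members of all 27 gene lists, 1 row per list ordered by its median (black bar). Red members were called higher, blue lower and grey not called; the ATF4 list has the lowest median (-0.32) and the protease list the highest (0.21).

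Proliferation genes were read against the 29.4% called among all genes tested. Of 25 mitosis genes 2 were higher and 1 lower (12% called), with a median of 0.03, and of 25 DNA replication genes 5 were higher and 1 lower (24% called). The single lower mitosis gene was called in 1 of the 6 cases in which a library was left out, the one without siCTRL replicate 3. It was not called with RLE scaling, no filter on low counts, the 2 groups alone, DESeq2 or the heart muscle score as a covariate. Of 20 cyclins, kinases and inhibitors of G1, 4 were higher and 3 lower (35% called), and 1 or 2 were higher when a library other than siCop1 replicate 2 was left out. Rrm2, a subunit of ribonucleotide reductase, was at 59.3, 60.5 and 55.8 CPM with siCTRL and 75.8, 77.9 and 75.8 CPM with siCop1 (log2 fold change 0.39, SE 0.037, adjusted p 1.62e-09), and Mcm4 of the replicative helicase fell by 0.24 on the log2 scale. Cdkn1a, the p21 inhibitor of cyclin-dependent kinases, stood at 72.7, 69.4 and 70.5 CPM with siCTRL and 49.9, 52.05 and 49.2 CPM with siCop1 (log2 fold change -0.49, SE 0.042, adjusted p 1.66e-10). It was among the 10 lower of 24 p53 target genes (41.7%), of which Gdf15, a stress-induced cytokine (-0.80), and Pltp, a lipid transfer protein (-0.52), fell further. Ei24 was the higher one (0.18, adjusted p 7.51e-05).

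Metabolic lists were mixed. Of 28 sterol and fatty acid genes 7 were higher and 9 lower (57.1% called). Fasn, the fatty acid synthase, rose from 412 ± 23.6 to 511 ± 17.8 CPM (SD, n = 3 each, log2 fold change 0.31). Insig1, a regulator of SREBP, fell from 88.7 ± 2.79 to 61.6 ± 2.78 CPM (SD, n = 3 each, log2 fold change -0.53). In glycolysis 5 were higher and 2 lower of 20 (35% called). Hexokinase Hk2 rose by 0.41, and Pfkp, a phosphofructokinase, was at 30.7, 29.5 and 27.4 CPM with siCTRL and 15.7, 18.3 and 14.1 CPM with siCop1 (log2 fold change -0.86, SE 0.068, adjusted p 3.27e-11). Of 72 respiratory chain genes tested 7 were higher and 4 lower (15.3% called, against 29.4% of all genes tested). The 7 became 3 without siCop1 replicate 1 or siCTRL replicate 3 and 4 without siCop1 replicate 2 or siCTRL replicate 2. The 4 became 1 without siCop1 replicate 2 or siCTRL replicate 1 and 2 without siCop1 replicate 3. Of the 4, Cox6a2 and Cox7a1 are heart muscle markers. The lower count was 2 with the heart muscle genes left out and 1 with the heart muscle score as a covariate. Sdhd, a membrane subunit of complex II, stood at 93.6, 83.9 and 85.4 CPM with siCTRL and 118, 115 and 115 CPM with siCop1 (log2 fold change 0.40, SE 0.041, adjusted p 6.21e-09). Cytosolic ribosomal protein genes had 12 lower (15.8%) and 0 higher of 76, against 16.6% lower and 12.8% higher among all genes tested. Their median was -0.06, and 4 were lower with the heart muscle score as a covariate. Reads of ribosomal protein genes can be shared with processed copies elsewhere in the genome, so their values are uncertain.

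In the clock list 9 were lower and 2 higher of 23 (47.8% called). The higher members were the kinases Csnk1e (0.20, adjusted p 3.76e-05) and Csnk1d (0.11, adjusted p 0.00293), which phosphorylate the Per repressors. Ciart, a repressor that follows the clock, was at 7.97, 8.34 and 6.91 CPM with siCTRL and 5.25, 5.33 and 5.72 CPM with siCop1 (log2 fold change -0.51, SE 0.11, adjusted p 0.000497). Its groups did not overlap.

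The 12 largest called increases, at a mean of at least 1 CPM and without overlap between groups, were mostly of genes outside the lists. Akr1c18, a steroid reductase that inactivates progesterone, was at 0.108, 0 and 0.238 CPM with siCTRL and 1.19, 5.21 and 1.49 CPM with siCop1 (log2 fold change 4.43, SE 0.70, adjusted p 4.5e-05). siCop1 replicate 2 held most of it, and the adjusted p was 0.0567 when only the 6 libraries were fitted. The transcription factor gene Dach1 was at 0.108, 0.253 and 0.199 CPM with siCTRL and 2.199, 2.49 and 2.297 CPM with siCop1 (log2 fold change 3.63, SE 0.27, adjusted p 8.16e-12), and Htr2a, a serotonin receptor, at 1.66, 2.48 and 2.701 CPM with siCTRL and 10.1, 9.56 and 10.8 CPM with siCop1 (log2 fold change 2.16, SE 0.13, adjusted p 7.87e-14). Angptl7, a secreted angiopoietin-like protein, was at 5.48, 5.35 and 5.84 CPM with siCTRL and 25.04, 23.2 and 25.4 CPM with siCop1 (log2 fold change 2.14, SE 0.10, adjusted p 1.68e-14). All 3 of these genes lay above their control range in each siCop1 library. The urea transporter Slc14a1 (2.21), the chloride channel protein Clic5 (1.97), the scaffold Frmpd4 (1.96), the phosphatase Ptpn22, also a gene of immune cells (1.84), and the growth cone protein Gap43 (1.84) completed the 12 with Mmp13, C3ar1 and Mmp3.

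Besides Rfwd2 and Igfbp3, the largest decreases included several genes with few reads. Atp2a3, a calcium pump of the endoplasmic reticulum, stood at 2.2004, 2.105 and 2.11 CPM with siCTRL and 0.224, 0.428 and 0.403 CPM with siCop1 (log2 fold change -2.60, SE 0.24, adjusted p 7.92e-10). S100b, a calcium-binding protein, was at 2.24, 1.73 and 2.34 CPM with siCTRL and 0.596, 0.311 and 0.564 CPM with siCop1 (log2 fold change -2.09, SE 0.23, adjusted p 2.45e-08), and Scrg1 fell by 1.79 on the log2 scale. S100b is a glial marker too. The 12 listed markers of neurons and glia, S100b among them, summed to 273 to 296 CPM with siCTRL and 239 to 247 CPM with siCop1. Of the 6 tested 3 were lower, against 16.6% of all genes tested, and their part was not tested. Sspo (-1.93), Clec14a, a gene of endothelium (-1.85), and AU021092 (-1.94) were lower too. The 12 listed endothelial markers summed to 21.9 to 24.7 CPM with siCTRL and 19.5 to 20.9 CPM with siCop1. Of 8 tested 2 were lower, against 16.6% of all genes tested, and their part in Clec14a was not tested. Omp stood at 4.47, 0.674 and 0.794 CPM with siCTRL and 0.522, 0.3498 and 0.605 CPM with siCop1, with siCTRL replicate 1 far above the rest. Without that library its log2 fold change was -0.58 (adjusted p 0.339), and without siCop1 replicate 2 it was -1.84 (0.0523). The call was also lost with the heart muscle score as a covariate (-1.46, adjusted p 0.219) and in the 2 groups alone (0.247). Des, Tnni3 and Cox6a2 are heart muscle markers.

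Heart muscle genes were examined as a possible admixture of the control libraries. Of 41 markers 34 were tested. Of these 8 were lower and 0 higher, against 16.6% and 12.8% of all genes tested. The summed level of the 41 was 153 to 278 CPM with siCTRL and 85.1 to 90.0 CPM with siCop1. Most of the siCop1 sum was Ldb3 and Tbx5, which differed little between the groups. Ldb3 was at 42.3 to 45.2 CPM with siCTRL and 37.6 to 40.1 CPM with siCop1. Tbx5 was at 35.2 to 38.6 CPM with siCTRL and 34.4 to 35.4 CPM with siCop1. Besides Myh6, the ventricular light chains Myl2 and Myl3 had 474, 143 and 185 and 321, 84 and 108 counts with siCTRL, against 3, 1 and 0 and 0, 0 and 0 counts with siCop1. These changes were not called (adjusted p 0.122 for Myh6), and the siCTRL libraries differed widely among themselves. A score, the mean log2 CPM of the 34 markers, was 0.63 to 1.96 in the siCTRL libraries and -2.88 to -2.27 in the siCop1 libraries. In the 3 other settings 6 siCTRL libraries held at most 1 count of Myh6 and scored -2.78 to -2.58. The other 3, replicate 2 of each setting, scored 0.85 to 2.44. Of the 12 siCop1 libraries of the series 10 had 0 counts of Myh6, and the highest had 3. In the comparison, siCop1 replicate 2 nevertheless had 49 counts of Actc1 and 16 of Actn2, where siCop1 replicates 1 and 3 had 0 of each. In bulk RNA, more cells of a type and more RNA per cell cannot be told apart.

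Across the 24 libraries 47 genes had a Spearman correlation of at least 0.7 with this score after group means were removed. Of the 47, 26 were heart markers, which make up the score, so their correlation with it is partly built in. Of the 47, 12 were called here, against 29.4% of all genes tested, and all 12 were lower, against 16.6%. They include 10 of the 175 genes called at least 2-fold lower and 0 of the genes called higher. Since all 3 siCTRL libraries of the comparison hold heart transcripts, none can be kept as a clean control. The siCop1 effect was therefore read as its mean over the 3 other settings without the 3 siCTRL libraries that hold Myh6. That mean rests on 15 libraries, none of them in the comparison itself. The compared libraries stayed in the fit, however, and shared its scaling and its estimate of the spread. There, Des, the muscle intermediate filament, was still lower (-1.45, adjusted p 1.46e-06; -3.30 here), as were Cox6a2, a muscle form of a cytochrome oxidase subunit (-1.76; -2.05 here), Tnnc1 (-0.60; -1.53 here), Lpl (-0.65; -0.94 here), Asb2 (-0.85) and Mylk3 (-0.59). Cox6a2 was at 8.66, 6.06 and 6.63 CPM with siCTRL and 1.602, 1.87 and 1.69 CPM with siCop1, and at 4.58 to 6.38 CPM in the 6 siCTRL libraries with little Myh6. Des was at 4.83, 2.3995 and 2.38 CPM with siCTRL and 0.261, 0.505 and 0.202 CPM with siCop1, and at 1.01 to 1.24 CPM in those 6.

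The other called genes did not pass there. Tnni3, the cardiac troponin inhibitor, was at 10.7, 3.83 and 3.93 CPM with siCTRL and 0.708, 0.583 and 0.605 CPM with siCop1, at 0.598 to 0.934 CPM in the 6 siCTRL libraries with little Myh6, and its mean effect there was 0.12 (adjusted p 0.787). Its call here (-3.28, adjusted p 0.0481) was lost without any one of the 6 libraries (adjusted p 0.0551 to 0.177), and with the heart muscle score as a covariate its log2 fold change was -0.20 (0.651). Cox7a1 (-0.097), Ttn (-0.94, adjusted p 0.461), Perm1 (-0.056) and Ptgds (-0.53) were among the others. With the heart muscle score as a covariate in the fit, 3203 genes were called, 1269 higher and 1934 lower, of which 3044 were among the 4342 in the same direction. The score separated the 2 groups completely, at 0.63 to 1.96 with siCTRL and -2.88 to -2.27 with siCop1. This covariate therefore overlaps with the knockdown and can lower precision. Calls lost with it do not show dependence on heart transcripts.

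**Figure D4:**
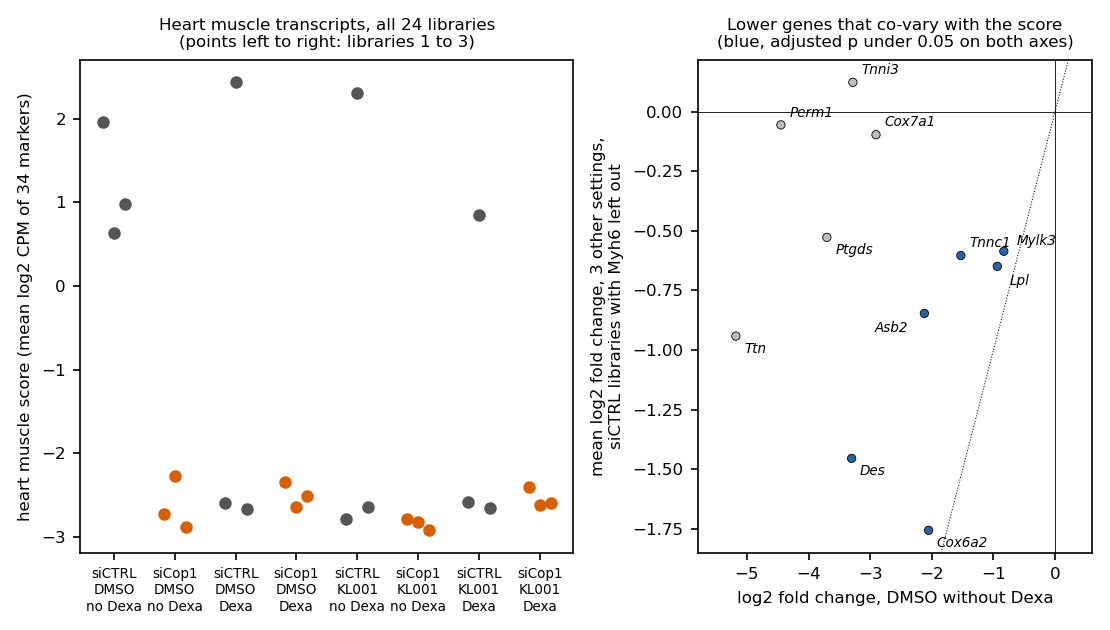
Heart muscle transcripts. The left panel gives the score (mean log2 CPM of 34 markers) of each of the 24 libraries, grey for siCTRL and orange for siCop1; the 3 siCTRL libraries in DMSO without Dexa and replicate 2 of the 3 other siCTRL groups lie above 0. The right panel sets the log2 fold change of 11 of the 12 called co-varying genes, those named in the text, against their mean over the 3 other settings; 6 of them (blue) were lower in both.

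The other settings also gave the siCop1 effect in separate libraries. Scaling and the estimate of the spread were shared with the compared libraries, so the 2 sets of calls are not fully independent. For the mean siCop1 effect over the 15 libraries, 7200 of 14772 genes (48.7%) were called. Of the 4342 genes called here, 3832 were called there in the same direction, which is 88.3% of the former and 53.2% of the latter, and 15 were called in the opposite direction. The sign was the same for 4260 (98.1%). Of the genes called at least 2-fold, 95 of 116 higher and 148 of 175 lower were called there in the same direction. Values there were 1.26 for Hmga2, 1.20 for Fosl1, 1.68 for Mmp3, 1.44 for Mmp13, -0.68 for Acta2, -0.87 for Slc7a5 and -0.88 for Sfrp2. Igfbp3 had -1.68 there and -2.52 here. Some list medians were nearer to 0 there, with 0.026 against 0.15 here for the ERK list and -0.068 against -0.23 for the Wnt list. Others were similar, with -0.29 against -0.32 for the ATF4 list, -0.33 against -0.29 for contractile genes and 0.28 against 0.21 for proteases.

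Whether the effect differs with Dexa was tested directly as the difference of the 2 effects in DMSO, which rests in part on the same 6 libraries. It passed for 99 genes (0.67%), 43 with a more positive and 56 with a more negative effect under Dexa, and 78 of the 99 were also called for the effect itself. Errfi1 rose by 0.86 without Dexa and stood at -0.017 with Dexa (difference -0.88, SE 0.057, adjusted p 2.28e-11). Stc2, a secreted glycoprotein, was at 23.8, 24.5 and 21.9 CPM with siCTRL and 45.2, 41.6 and 47.1 CPM with siCop1 here (0.93) and at a log2 fold change of 0.12 with Dexa (-0.81, adjusted p 4.17e-08). Dkk2 rose by 0.86 here and by 2.06 with Dexa (1.20, adjusted p 2.28e-11). Nptx1, a secreted pentraxin, was at 10.9, 11.4 and 11.003 CPM with siCTRL and 37.7, 35.5 and 36.6 CPM with siCop1 here, a log2 fold change of 1.72 against 2.98 with Dexa.

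Members of the lists were among the 99. Fst (difference -0.78, adjusted p 4.36e-07) and Ctgf (-0.42, 5.85e-06) had effects of opposite sign, 0.29 here against -0.49 with Dexa for Fst and 0.18 against -0.24 for Ctgf. Grem1 rose more with Dexa (0.37, 0.00161). Etv5 (0.39, 0.0241), Etv4 (0.36, 0.0176) and the glycolytic regulator Pfkfb3 (0.42, 0.000166) had a more positive effect with Dexa. Their log2 fold changes there were -0.24, 0.14 and 0.067, against -0.63, -0.22 and -0.35 here. Foxa1, a pioneer transcription factor, was at 4.11, 3.45 and 4.21 CPM with siCTRL and 1.64, 2.25 and 2.02 CPM with siCop1 here (-0.998) and at 0.31 with Dexa. The difference of the effects under KL001 and DMSO, both without Dexa, passed for 0 genes (0%) in edgeR, with 982 genes at an unadjusted p below 0.05 and 15 called by DESeq2. The effect on Mmp13 was 2.49 here and 0.43 under KL001, a difference that did not pass.

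**Figure D5:**
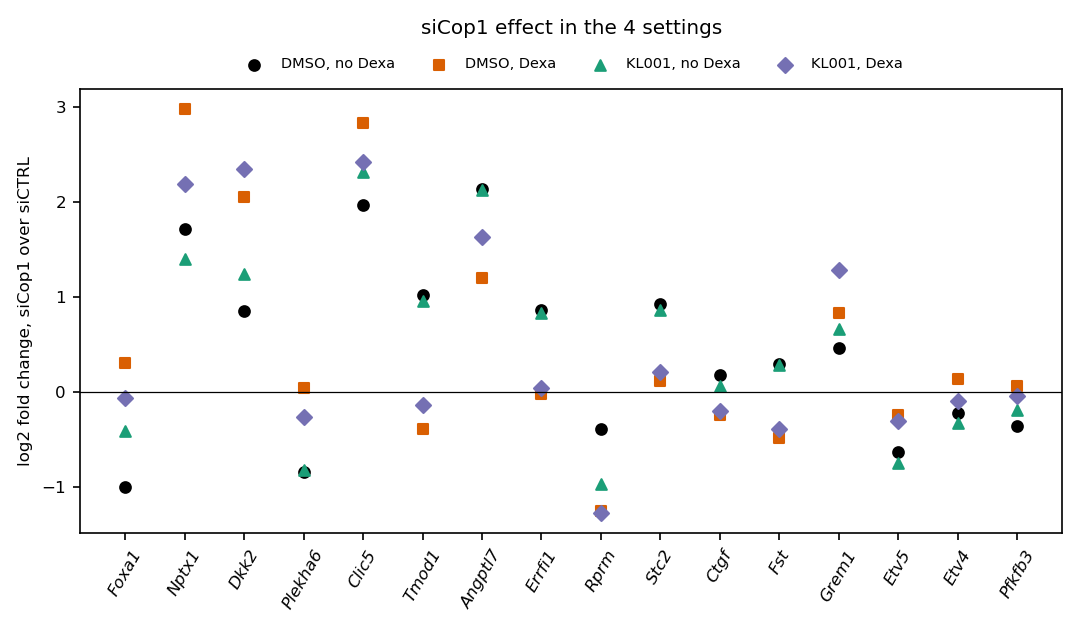
Log2 fold change of siCop1 over siCTRL in each of the 4 settings for 16 genes whose effect differs with Dexa in DMSO. Black circles are DMSO without Dexa; Errfi1, Stc2, Tmod1, Ctgf and Fst lie above 0 without Dexa in DMSO and nearer to or below 0 with it.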

How the data were processed

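Messenger RNA libraries (TruSeq Stranded mRNA, 500 ng of RNA, short single reads on 3 lanes, per the labels' protocols) gave a deposited table of raw counts per gene symbol. The submitters' processing notes name bcl2fastq 1.8.4, STAR 2.4.5a, featureCounts of Subread 1.4.6-p3, Picard 1.126 and DESeq2, and the builds GRCm38 and mm10. The sources used here do not give the counting strand or the annotation, so overlapping and near-identical genes are uncertain. The deposited normalized table was not used, and 0 columns were left unmapped.

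Counts were filtered with filterByExpr (minimum count 10, total 15), scaled with TMM and fitted in edgeR 4.0.16 (R 4.3.3; quasi-likelihood, robust) with 1 mean per group over 24 libraries. The fit was tested on simulated data. SEs come from the log2 fold change and its F statistic. Named genes were the ligase and substrate lists, the 12 largest called changes each way (mean at least 1 CPM, no overlap), the 5 largest CPM differences each way, up to 3 called members each way per list, and for each interaction at most 5 genes with the largest difference of either sign. Symbols of the form Gm plus number, Rik and -ps were left out of the ranked parts. Other list members, among them Mmp10, Plaur, Plau, Plat, Timp1, Adamts5, Phlda1, Myc, Fos, Tagln, Cnn2, Myl9, Srf, Asns, Chac1, Ddit3, Atf4, Psat1, Herpud1 and Hspa5, and genes co-varying with heart muscle were named after their values were seen and were not followed across the alternatives. Members and lists were chosen with earlier results of these data known, and leaving out siCTRL libraries with Myh6 in the other settings was chosen after seeing the data. A few listed genes are not reported here. RefSeq promoters matched 10498 of the 14772 tested genes. Alternatives were RLE scaling, no filter, DESeq2 1.42.0, the groups alone, the replicate number as a block, a heart muscle covariate, heart genes left out and each library left out.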

Additional observations from a re-analysis of the deposited data

Results flagged for a closer look

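The siCop1 effect in DMSO differed between the settings without and with Dexa for 99 genes, by a test of the difference itself in edgeR's quasi-likelihood fit with Benjamini-Hochberg adjustment. The log2 difference, the effect with Dexa minus the effect without, was 1.30 for Foxa1, 1.26 for Nptx1, 1.20 for Dkk2, 0.88 for Plekha6 and 0.86 for Clic5. It was -1.41 for Tmod1, -0.94 for Angptl7, -0.88 for Errfi1, -0.87 for Rprm and -0.81 for Stc2. Angptl7, a secreted protein, rose by 2.14 without Dexa and by 1.20 with it. Tmod1, which caps actin filaments, rose from 0.764 ± 0.121 to 1.56 ± 0.362 CPM (SD, n = 3 each) without Dexa (1.02) and was at -0.39 with Dexa.

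The difference for Foxa1, Nptx1, Dkk2, Angptl7, Errfi1 and Stc2 passed without any single one of the 12 libraries, with an adjusted p of at most 0.0396. That of Plekha6 (adjusted p 0.0433) was lost in 11 of the 12 cases, all but the one without siCop1 replicate 2 without Dexa, with 0.78 to 1.03 on the log2 scale and an adjusted p up to 0.154. That of Clic5 was lost without siCop1 replicate 1 or 3 with Dexa, siCop1 replicate 1 without Dexa, siCTRL replicate 1 or 3 with Dexa or siCTRL replicate 3 without Dexa (adjusted p 0.0504 to 0.122), and with the heart muscle score as a covariate (0.79, adjusted p 0.0718). That of Tmod1 was lost without siCop1 replicate 1 or 3 with Dexa, siCop1 replicate 2 without Dexa, or siCTRL replicate 2 or 3 without Dexa (0.0641 to 0.129). That of Rprm was lost without siCop1 replicate 2 or 3 with Dexa, siCop1 replicate 1 or 3 without Dexa, siCTRL replicate 1 with Dexa or siCTRL replicate 2 without Dexa (0.0562 to 0.123). The effect of siCop1 on Rprm without Dexa (-0.39, adjusted p 0.0491) was lost without 5 of its 6 libraries, with RLE scaling, no filter on low counts or DESeq2 (adjusted p 0.056 to 0.0885), and with the heart muscle score as a covariate (0.192).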

How the results depend on the processing

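The 4342 calls became 4308 with RLE scaling, 4263 with no filter on low counts, 3850 with DESeq2, 4408 in a fit on the compared groups alone, 3203 with the heart muscle score as a covariate and 4341 without the heart muscle genes. Leaving out each of the 6 libraries gave 3632 to 3815 calls, 1555 to 1754 higher and 2055 to 2174 lower, with 102 to 124 and 157 to 184 at least 2-fold. With no filter, at least 2-fold calls rose to 231 higher and 282 lower, and the Dexa difference to 230 genes (116 and 114). Leaving out each library gave 71 to 107 genes for that difference, 24 to 51 more positive and 40 to 71 more negative; the 43 more positive became 28 without siCop1 replicate 1 with Dexa and 24 and 25 without siCTRL replicates 2 and 3 without Dexa. The KL001 difference, 0 genes, became 61 with no filter (35 more positive and 26 more negative), 15 in DESeq2 (4 and 11) and 1 with the heart covariate (1 more positive). It was 0 to 6 without each library (0 to 1 and 0 to 6): 6 without siCTRL replicate 2 and 1 without siCTRL replicate 3, both in KL001.

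With the replicate number as a block there were 4314 calls (1858 higher, 2456 lower), 97 for the Dexa difference and 0 for the KL001 difference. The numbers were not taken to pair the libraries, since the deviations of same-numbered libraries correlated by 0.12, -0.14 and 0.22 over 9590 genes. Under the block Rprm (adjusted p 0.0562) and E2f2 lost the effect call and Plekha6 the Dexa call.

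Of 172 named genes 164 were called, 130 in each alternative that keeps all libraries and 126 also without any single library. Uncalled genes near 0 turned in direction. Etv1 (-0.0029) was 0.0079 with RLE, 0.0056 with no filter, 0.0081 on the groups alone and 0.0078 in DESeq2, and -0.095 to 0.097 without single libraries. Dda1 became 0.036 and Cul4b -0.022 with the heart covariate. Without single libraries Dda1 ranged from -0.032 to 0.0074, Cul4b from -0.0010 to 0.050, Trib2 from -0.013 to 0.085 and Cebpb from -0.16 to 0.093. List counts with few members moved: with the heart covariate, higher substrates went from 4 to 2, G1 genes from 4 to 1 and lower ribosomal genes from 12 to 4. The causes were not tested. Values under 1 CPM rest on few reads.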
